A study of Mus musculus with 14 samples.

Results

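The culture change of a gene is its log2 signal in organoids minus its log2 signal in tissue of the same organ. Rose, fell, gained and lost are used below for this difference, not for a change followed in the same cells. The interaction described here is the culture change of gallbladder minus the culture change of liver. It asks for which genes the difference between organoids and whole tissue is unlike in these neighbouring organs. It is also the organoid difference between the organs (gallbladder minus liver) minus the tissue difference, so a gene can reach a large interaction from either side. It was computed for all 19938 genes with a probe set of 1 gene symbol, from 8 of the 14 arrays of the series, with 2 arrays in each of 4 groups. The groups were undifferentiated gallbladder organoids, gallbladder tissue, liver organoids and liver tissue, all from C57BL/6 mice. Per the labels, organoids of both organs grew in Matrigel, a basement membrane gel, in a shared basal medium with 1.25 uM N-acetylcysteine and the B27 and N2 supplements. To this came EGF, FGF10 and HGF at 50 ng/mL each, 10 mM nicotinamide, and media conditioned with R-spondin 1, which strengthens Wnt signalling, and noggin, which blocks BMP signalling. The labels name no treatment of the tissues, and give neither the cells that started a culture nor an age, so a culture change compares an epithelial culture with a whole organ.

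The gallbladder is a muscular sac lined by columnar biliary epithelium that stores bile and concentrates it by absorbing salt and water. The liver is made up mainly of hepatocytes, which synthesise plasma proteins and bile acids, while its biliary epithelium is a small part of the organ. Organoids grown from either organ in medium rich in R-spondin are known as biliary-type epithelium, so the tissue they are set against holds much of it in gallbladder and little of it in liver.

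Tissue arrays varied more than organoid arrays: the SD between replicates, pooled over genes, was 0.0985 log2 units in gallbladder organoids, 0.136 in liver organoids, 0.289 in liver tissue and 0.404 in gallbladder tissue. The labels leave unsaid whether the arrays of a group stand for different mice or cultures, so p-values measure only the spread between these arrays, which may be technical. The gallbladder tissue arrays stand apart from each other. Xist, transcribed from the inactive X chromosome, read 13.51 and 5.46 on gallbladder tissue replicates 1 and 2, and 11.60 to 12.33 on the other 6 arrays. The Y-linked Eif2s3y read 3.72 and 10.02 in gallbladder tissue and had means of 3.97, 3.95 and 3.93 in gallbladder organoids, liver organoids and liver tissue. Both gallbladder tissue arrays also carry hepatocyte RNA: albumin (Alb) read 14.30 on each, against 14.34 and 14.35 in liver tissue. Signals of 14 or more lie near the top of the scale, so these albumin values do not show equal amounts. Summed over 21 hepatocyte plasma proteins, the log2 signal was 16.87 and 18.00 in gallbladder tissue, 18.45 and 18.30 in liver tissue, 13.60 and 13.67 in gallbladder organoids and 13.78 and 13.88 in liver organoids. Many counts that rest on gallbladder tissue are therefore also given without one of its arrays. Most values of single genes, and some list counts, are given with both arrays only.

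Of the 19938 genes, limma called 7929 in the interaction at an adjusted p below 0.05 (39.8%), 4523 with the higher change in gallbladder (22.7%) and 3406 with the lower (17.1%). All 16 combinations of single arrays gave the same sign for 12421 genes (62.3%), a condition the rule for named genes uses. Each of the 7929 called genes met it, so it left no called gene out. The median interaction over all genes was 0.14, and 4071 called genes had a size of at least 1 log2 unit, 1871 higher and 2200 lower. Without gallbladder tissue replicate 1, 7325 genes were called (6645 of them among the 7929), and without replicate 2 9064 (7305 of them among the 7929). The higher count of 4523 was 2997 without gallbladder organoid replicate 2 and 2972 without liver organoid replicate 2. When a difference beyond 1 log2 unit was required by the test itself, 1086 genes were called, 242 higher and 844 lower. With each array centred on its median, 8625 were called, 5771 higher and 2854 lower, and the median of all genes was 0.26. The culture change was called for 9554 genes in gallbladder (47.9%) and for 8952 in liver (44.9%). Of the 5228 genes called in both, 4193 (80.2%) moved in the same direction, and across genes the culture changes, which share no array, correlated at r = 0.60 (19938 genes, which are not independent replicates).

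**Figure D1:**
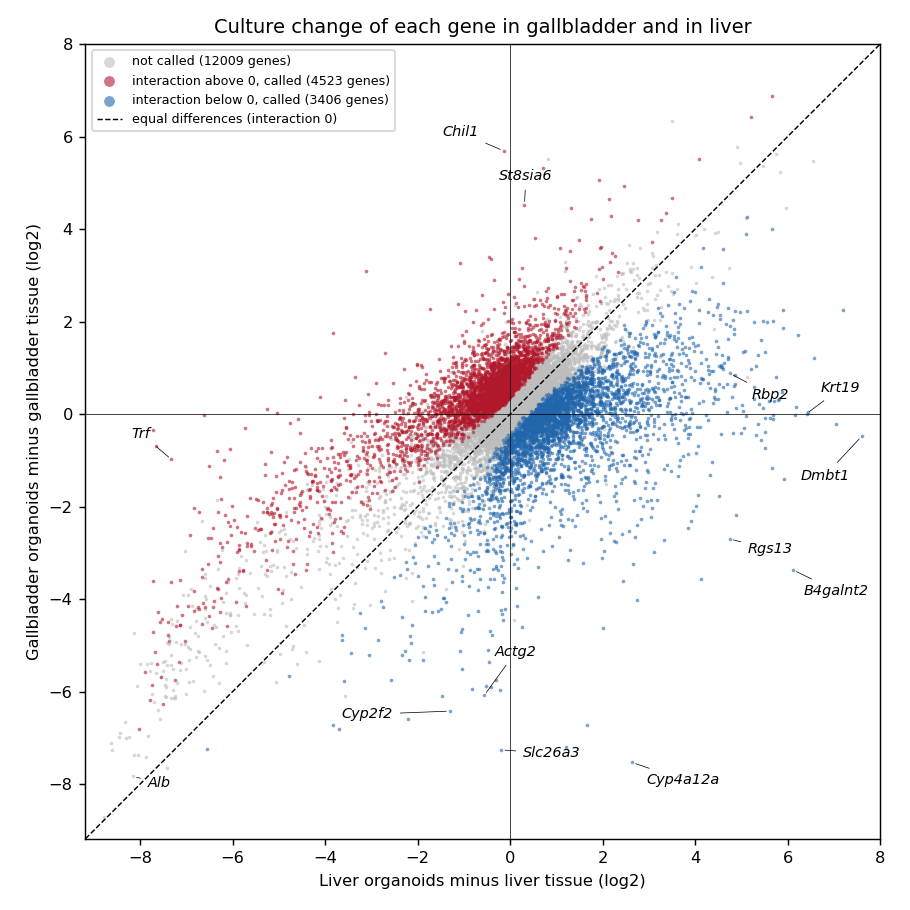
Culture change of each gene in liver (x axis, log2) and in gallbladder (y axis, log2), 1 point per gene, coloured by the call and sign of the interaction, with the line of equal changes dashed. Krt19 lies at 6.41 in liver and 0.01 in gallbladder, Chil1 at -0.14 and 5.69, and Alb near the dashed line at -8.15 and -7.83.

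The organs differed more as tissues than as organoids in the size of their differences. The tissue difference was called for 9597 genes (48.1%) and the organoid difference for 2530 (12.7%), and the SD over genes was 0.97 log2 units for the tissue difference and 0.48 for the organoid difference. Among the 7929 interaction genes, 5583 (70.4%) had a called tissue difference and no called organoid difference. The reverse, organoids called as different and tissues not, held for 750 genes (9.46%), 419 higher and 331 lower; over all genes, 6.17% were called higher and 6.52% lower in gallbladder organoids. In 816 (10.3%) the organ difference was called in opposite directions in tissue and organoids, in 164 (2.07%) it kept its direction but changed in size, and in 616 (7.77%) neither was called. Since the interaction is built from these differences, the counts describe its make-up and are no separate evidence for it. The organoid difference rests on single arrays more than the others: it was called for 918 genes when gallbladder organoid replicate 1 was left out, 887 for replicate 2, 1216 for liver organoid replicate 1 and 981 for its replicate 2. With the same arrays left out in turn, the 750 genes became 332, 338, 418 and 345, the 816 became 295, 269, 417 and 301, and the 164 became 56, 54, 68 and 61. Without gallbladder tissue replicate 2 the 164 became 395. Since 1 variance per gene serves all groups, tissue spread included, a gene not called between organoids may still differ. With an estimated weight for each array, 7399 genes were called between organoids and 5910 between tissues, so the order of these counts depends on that choice.

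**Figure D2:**
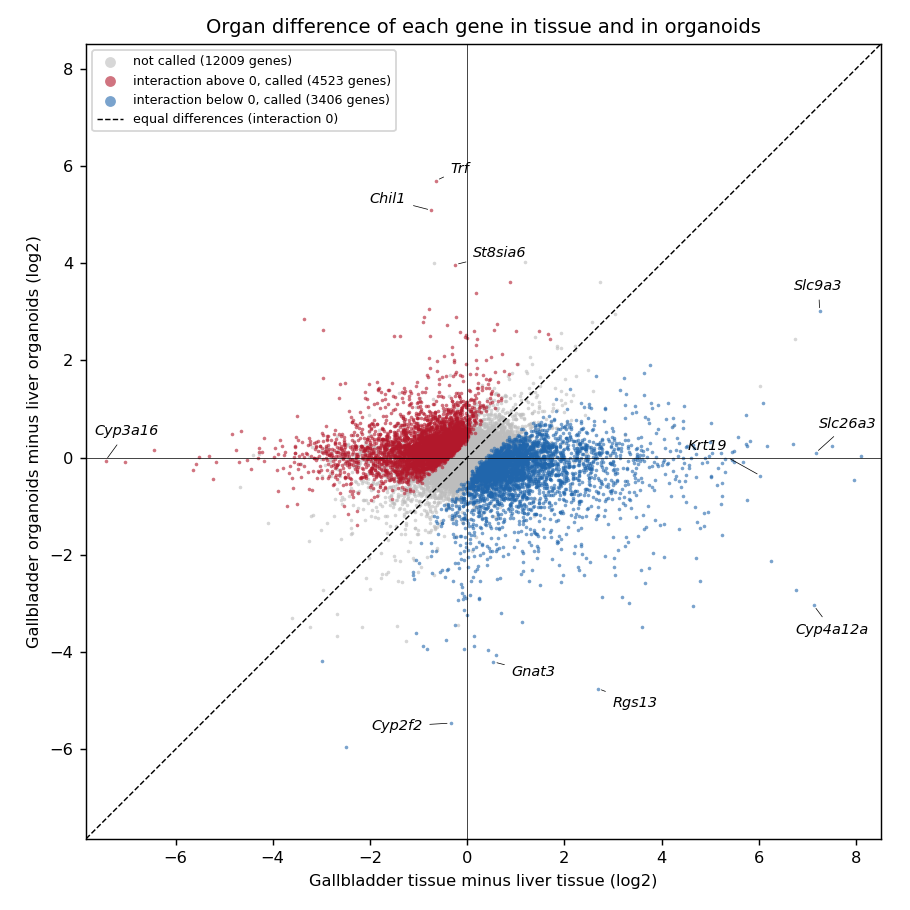
Gallbladder minus liver for each gene in tissue (x axis, log2) and in organoids (y axis, log2), coloured as by the interaction, with equal differences dashed. The cloud is wide along the tissue axis (SD over genes 0.97) and narrow along the organoid axis (SD 0.48), with Trf at 5.70 in organoids and -0.64 in tissue and Cyp2f2 at -5.46 and -0.34.

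Over all genes, 22.7% were higher in the interaction and 17.1% lower, and the counts of each list below stand against these shares. Markers of bile duct epithelium lay mostly on the lower side. Of 12 measured markers, 10 had the lower and 1 the higher culture change in gallbladder, and the median interaction was -3.64 against 0.14 for all genes. Their median culture change was 4.36 in liver and 0.68 in gallbladder: 10 of 12 rose in liver culture, where 26.7% of all genes did, and 7 of 12 in gallbladder, where 32.7% did. The list's mean level was 7.81 and 7.84 in liver tissue and between 10.64 and 11.25 on every other array, so liver tissue alone was low. The higher member was the secretin receptor gene Sctr (0.70), named after its values were seen, and without gallbladder tissue replicate 1 the higher count was 2. In bulk RNA of this kind, fewer cells of a type and less RNA per cell cannot be told apart.

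The biliary keratin Krt19 (probe set 10391036) read 13.52 and 13.24 in gallbladder tissue, 13.35 and 13.43 in gallbladder organoids, 7.29 and 7.41 in liver tissue and 13.76 and 13.77 in liver organoids. Its interaction was -6.40 ± 0.17 (SE, n = 2 arrays per group, adjusted p = 4.1e-08). Liver tissue was the only low group, and gallbladder tissue and organoids overlapped. Epcam, the epithelial adhesion molecule, followed with 11.86 and 11.24 in gallbladder tissue, 12.65 and 12.54 in its organoids, a mean of 7.05 in liver tissue (SD 0.08) and 12.34 and 12.41 in liver organoids (interaction -4.28 ± 0.26, adjusted p = 3.63e-06). Mmp7, a matrix metalloproteinase of biliary epithelium (-5.35), the surface glycoprotein Cd24a (-5.57) and the keratin Krt7 (-3.66) lay on the same side. Krt7 rose in both organs, by 2.02 in gallbladder and by 5.69 in liver. Pkhd1, whose product sits on the cilium of biliary cells and which was named after its values were seen, fell by 2.42 in gallbladder culture and rose by 1.40 in liver culture. Cftr, the chloride channel, rose by 2.34 in gallbladder and by 1.86 in liver, with an interaction of 0.48 (adjusted p = 0.224).

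Among 13 biliary and foregut transcription factors, 5 had the lower change in gallbladder and 0 the higher, with a median of -0.57. The higher count was 1 without gallbladder tissue replicate 2 or liver tissue replicate 2. Wherever limma called 0 genes of a list in a direction, 0 had an unadjusted p under 0.05 in it, except for adipocyte markers, described last. Elf3 (-5.71), Ehf (-5.50) and Klf5 (-4.25), regulators of epithelial differentiation, and Sox17 (-3.41 ± 0.26, adjusted p = 1.27e-05), which specifies the gallbladder and extrahepatic ducts in the embryo, were among them. Sox17 read 10.66 and 10.23 in gallbladder tissue, 10.00 and 9.95 in its organoids, 7.61 and 7.37 in liver tissue and 10.65 and 10.22 in liver organoids. Both organoid groups thus reached levels near that of gallbladder tissue, and liver tissue stood below all of them. Sox9, a progenitor and duct regulator, rose by 2.81 in gallbladder and by 2.43 in liver, with an interaction of 0.38 (adjusted p = 0.357). Pdx1, a foregut regulator, had an interaction of -0.71 (adjusted p = 0.594). Sox4, named after its values were seen, rose by 3.42 and 3.08. Hnf4a, which directs the hepatocyte program and is also active in biliary cultures, read 10.96 and 12.26 in gallbladder tissue, 12.18 in both gallbladder organoid arrays, 13.15 and 12.94 in liver tissue and 11.68 and 11.85 in liver organoids (interaction 1.85, adjusted p = 0.00815).

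Mucins and stomach-type secretory genes gave 8 lower and 3 higher of 17 (median -0.54). The membrane mucin Muc1 read 13.83 and 13.47 in gallbladder tissue, 13.67 and 13.71 in its organoids, 7.11 and 6.79 in liver tissue and 13.36 and 13.43 in liver organoids (interaction -6.40 ± 0.57, adjusted p = 3.17e-05), a pattern like that of Krt19. Other members fell in gallbladder culture while they rose in liver culture. The membrane mucin Muc4 fell by 2.73 in gallbladder and rose by 3.33 in liver, and the trefoil peptide Tff2 fell by 3.25 and rose by 2.65. Tff3, of the same family and named after its values were seen, fell by 2.24 and rose by 1.97. Anxa10, a gastric annexin, fell by 1.60 and rose by 3.09. For these 4 genes liver organoids came to stand above gallbladder organoids on every array, yet the organoid difference was not called for any of them (Muc4 -1.11, Tff2 -2.32, Tff3 -0.98 and Anxa10 -0.53).

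Epithelial progenitor markers gave 6 lower and 1 higher of 13 (median -0.12), and YAP target and fetal-like epithelium genes 6 lower and 0 higher of 11 (median -0.64). The higher count of progenitor markers was 2 and 3 without liver tissue replicates 1 and 2. Cd44, a hyaluronan receptor (-3.49), and Prom1, the CD133 antigen (-3.34), rose in both cultures, by 1.06 and 0.79 in gallbladder and by 4.55 and 4.13 in liver. Anxa1, a fetal-like epithelial marker, rose by 2.20 in gallbladder and by 4.98 in liver (interaction -2.77 ± 0.22, adjusted p = 1.63e-05). F3, tissue factor, rose by 1.03 and 4.52. These genes therefore moved the same way in both organs, with the smaller step in gallbladder.

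Smooth muscle and fibroblast markers formed the next group. Of 15 smooth muscle markers 14 had the lower culture change in gallbladder and 0 the higher (median -4.24), and of 15 fibroblast and matrix markers 14 and 0 (median -1.39). All 15 smooth muscle markers fell in gallbladder culture, where 15.2% of all genes did, and 7 of 15 fell in liver culture, where 18.2% did. Their mean level was 12.06 and 11.61 in gallbladder tissue, 7.89 and 7.98 in liver tissue, 7.49 and 7.48 in gallbladder organoids and 7.26 and 7.23 in liver organoids. The enteric actin Actg2 read 12.78 and 12.33 in gallbladder tissue and 6.22 to 6.82 on the other 6 arrays (interaction -5.52 ± 0.22, adjusted p = 3.16e-07). Calponin (Cnn1, -5.46), smooth muscle myosin (Myh11, -5.13) and desmin (Des, -4.63) had the same shape, with gallbladder tissue alone high. Cald1, caldesmon, was the marker not called, at -0.07. It fell by 3.17 in gallbladder and by 3.10 in liver, and was named after its values were seen.

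Fibroblast genes fell in both organs, all 15 in gallbladder and 13 of 15 in liver. Periostin (Postn) read 12.31 and 11.90 in gallbladder tissue, 9.41 and 9.19 in liver tissue, and 5.38 to 5.49 in organoids of both organs, with culture changes of -6.71 and -3.83 (interaction -2.88 ± 0.37, adjusted p = 0.000314). Vimentin (Vim) fell by 5.78 in gallbladder and fell by 3.60 in liver, and the collagen Col1a1 by 2.04 and 0.76. Both organoid groups were low on every array for these genes.

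**Figure D3:**
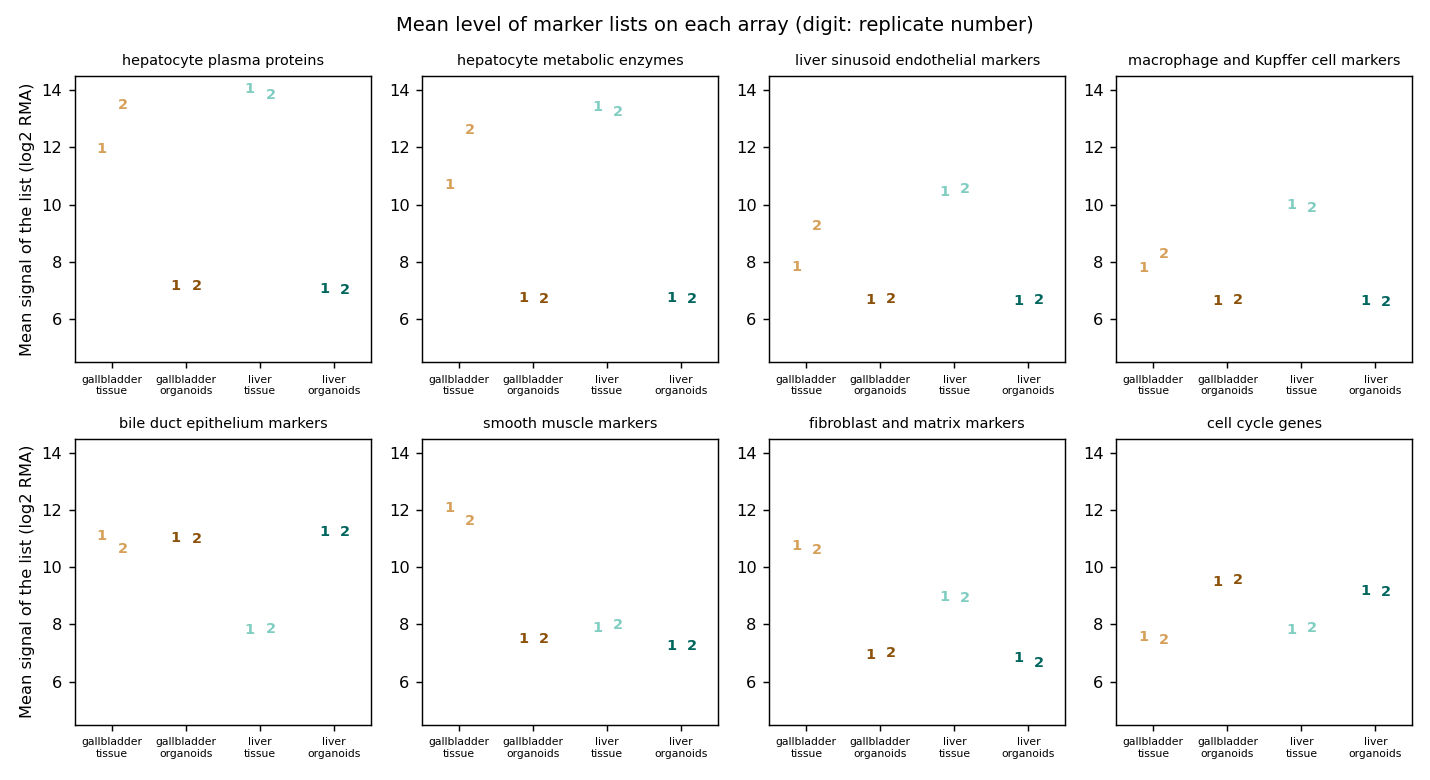
Mean log2 signal of 8 gene lists on each array, drawn as the replicate number, by group. Bile duct markers are low in liver tissue alone (7.81 and 7.84), smooth muscle markers are high in gallbladder tissue alone (12.06 and 11.61), and hepatocyte plasma proteins read 11.94 and 13.49 in gallbladder tissue and 14.03 and 13.84 in liver tissue.

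A further set, mostly on the lower side, includes genes high in gallbladder tissue and low elsewhere, and genes that fell in gallbladder culture and rose in liver culture. Of 14 genes of gallbladder ion and water transport, 8 had the lower change in gallbladder and 3 the higher (median -2.00). The 3 higher members are not among the genes named in this paragraph. Slc26a3, the apical chloride and bicarbonate exchanger, read 12.42 and 12.54 in gallbladder tissue, 5.31 and 5.13 in its organoids, 5.40 and 5.20 in liver tissue and 5.30 and 4.94 in liver organoids (interaction -7.08 ± 0.24, adjusted p = 1.47e-07). Gallbladder tissue was the only high group, with no difference called between the organoids (0.10, adjusted p = 0.77). Slc9a3, the sodium-proton exchanger that works beside it in salt absorption, read 13.19 and 12.01, then 9.42 and 9.90, 5.33 and 5.38, and 6.50 and 6.81 in the same order of groups. It fell by 2.94 in gallbladder and rose by 1.30 in liver, and gallbladder organoids stayed above liver organoids by 3.01. The water channel Aqp1 fell in both organs, by 4.65 in gallbladder and by 1.03 in liver (interaction -3.62 ± 0.49, adjusted p = 0.000423). Scnn1a, a subunit of the epithelial sodium channel, fell by 0.88 and rose by 2.44, and the chloride channel Clcn2, named after its values were seen, fell by 1.12 and rose by 1.26. The cotransporter Slc12a2, which loads cells with chloride for secretion and was likewise named after its values were seen, rose in both, by 2.50 and 2.82 (interaction -0.33, adjusted p = 0.476).

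The start region of Slc26a3 is shown because its gene lost the most signal of the transport list in gallbladder culture and because it holds a match to the letters bound by HNF1, a regulator of liver, gut and biliary genes. The sequence is RefSeq's, in build GRCm38.p6 at chr12:31437969-31438268 on the plus strand, from 250 bases before to 50 after the start, with the match in capitals.
Slc26a3: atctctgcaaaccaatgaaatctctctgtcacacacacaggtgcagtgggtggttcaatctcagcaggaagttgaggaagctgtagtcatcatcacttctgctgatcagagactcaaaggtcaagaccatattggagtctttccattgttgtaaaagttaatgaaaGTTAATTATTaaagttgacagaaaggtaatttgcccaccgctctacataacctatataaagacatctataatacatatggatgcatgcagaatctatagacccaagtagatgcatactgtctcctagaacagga
The capitals mark the HNF1 motif, searched as GTTAAT, any base, then ATT, with its first base at position -84 from the start. Of 32851 RefSeq promoters of this length, 0.399% hold these letters on either strand. A match describes the letters of this window and is no measured site.

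Several of the lowest interactions belong to genes that liver organoids gained and gallbladder organoids lost. B4galnt2, which builds the Sda carbohydrate antigen of gut mucins, read 13.36 and 13.12 in gallbladder tissue, 9.84 and 9.88 in its organoids, 6.56 and 6.37 in liver tissue and 12.70 and 12.47 in liver organoids (interaction -9.49 ± 0.18, adjusted p = 4.67e-09). The order of the organs was thus turned around between tissue and organoids. The same held for Myo15b, an unconventional myosin (-7.70), whose culture changes were -3.56 and 4.13. Cyp4a12a, an omega-hydroxylase of fatty acids known for male-biased expression in mouse liver, had the lowest interaction (-10.17 ± 0.28, adjusted p = 4.1e-08). It read 12.57 and 13.17 in gallbladder tissue, 5.28 and 5.40 in its organoids, 5.73 and 5.74 in liver tissue and 8.28 and 8.47 in liver organoids, so both gallbladder tissue arrays were high although their Xist levels differ. Its neighbour in the family, Cyp4a12b, followed (-8.38), and the probe sets of such close copies may share signal. Muc3, an intestinal membrane mucin, fell by 7.19 in gallbladder and rose by 1.21 in liver (-8.40 ± 0.62, adjusted p = 1.08e-05).

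Others of this side rose in liver culture and changed less in gallbladder culture. Dmbt1, a scavenger receptor of mucosal secretions, read 14.51 and 14.35 in gallbladder tissue, 13.97 and 13.94 in its organoids, 6.84 and 5.81 in liver tissue and 13.97 and 13.87 in liver organoids (interaction -8.07 ± 0.43, adjusted p = 1.71e-06), where the gallbladder tissue signal is near the top of the scale. Adgrg7, an orphan adhesion receptor (-7.26), was like it, with culture changes of -0.21 and 7.05. The gut lectin Lgals4 (-6.83), the cytochrome Cyp2s1 (-7.33) and Oit1 (-7.07) rose in liver by 5.66, 5.93 and 4.89 and fell in gallbladder by 1.17, 1.40 and 2.19.

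Hepatocyte genes fell in both cultures, with the larger median fall in liver. Among 21 plasma protein genes the median culture change was -5.67 in gallbladder and -7.32 in liver, with 20 of 21 falling in each, and both organoid groups were at a mean level of at most 7.14. For 10 of the 21 a group mean lies near the top of the scale, which limits these medians and their difference. The median interaction was 1.32, with 5 higher and 1 lower. The higher count is near the share of all genes called higher, 22.7%, so the calls do not set this list apart. This count rests on single arrays: 17 were higher without gallbladder tissue replicate 2, 3 without liver tissue replicate 2, and 1 without liver tissue replicate 1 or without any one of the 4 organoid arrays. The mean level of the list was 11.94 and 13.49 on the gallbladder tissue arrays and 14.03 and 13.84 in liver tissue. Metabolic enzymes of hepatocytes gave 7 higher and 0 lower of 19 (median 1.62), with 15 higher without gallbladder tissue replicate 2, 4 without gallbladder organoid replicate 2, liver organoid replicate 1 or either liver tissue array, and 3 without gallbladder organoid replicate 1 or liver organoid replicate 2. Arginase (Arg1), the last enzyme of the urea cycle, read 9.51 and 11.55 in gallbladder tissue, 6.49 and 6.28 in its organoids, 13.63 and 13.24 in liver tissue and 6.33 and 6.15 in liver organoids (interaction 3.04 ± 0.69, adjusted p = 0.00664). Asl, which precedes it in the cycle, was called in liver culture and not in gallbladder: it read 9.32 and 11.11 in tissue and 9.80 and 9.81 in organoids, a change of -0.41, and fell by 3.15 in liver.

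Genes of bile acid synthesis, uptake and export gave 2 higher and 1 lower of 20 (median 1.75), a higher count below the 22.7% of all genes. There were 14 higher without gallbladder tissue replicate 2, and 5 higher and 3 lower without replicate 1. Without any one of the organoid arrays or liver tissue replicate 1, 1 was higher. Cyp7a1, the rate-limiting enzyme of bile acid synthesis, named after its values were seen, read 8.30 and 11.52 in gallbladder tissue, 10.88 and 12.78 in liver tissue, and 4.68 to 4.96 in organoids (interaction 2.14, adjusted p = 0.18). Slc51b, a subunit of the basolateral bile acid exporter, was called at 2.56 (adjusted p = 0.00899): it read 8.20 and 9.64 in liver tissue and 6.14 to 6.68 on every other array. Gpbar1, the bile acid receptor of the cell surface, likewise named after its values were seen, was called in the other direction (-1.17, adjusted p = 0.00073), with 9.15 and 8.83 in gallbladder tissue and 7.46 to 7.74 elsewhere.

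Among the largest positive interactions are genes known for female-biased expression in mouse liver. Cyp3a16 read 12.18 and 11.32 in liver tissue and 3.90 to 4.42 on the other 6 arrays (interaction 7.37 ± 0.35, adjusted p = 1.04e-06). The sulfotransferase Sult3a1 (6.95 ± 0.66, adjusted p = 4.65e-05) read 12.18 and 10.50 in liver tissue and 3.58 to 4.87 elsewhere, and A1bg (6.59) read 12.72 and 11.56 against 5.17 to 6.23. Liver tissue alone was high, also against gallbladder tissue replicate 1, whose Xist signal is high. That array carries less hepatocyte signal than liver tissue, at a mean of 10.68 over the hepatocyte enzymes against 13.41 and 13.25. Other genes with a sex bias in liver, named after their values were seen, split the gallbladder tissue arrays. The female-biased Cyp2b9 read 11.35 and 6.17 in gallbladder tissue, and the male-biased Hsd3b5 4.56 and 11.26, Elovl3 5.29 and 10.71, Cyp7b1 8.35 and 13.09, and Cyp2d9 6.27 and 10.69. limma called 0 of these 5 in the interaction, and 4 of them took the opposite sign and were called when 1 gallbladder tissue array was left out. Without replicate 1, Cyp2d9 was at -1.51, Elovl3 at -2.24 and Cyp7b1 at -2.34, and without replicate 2 Hsd3b5 was at 2.72. The part that the Xist and Y-linked difference between the arrays has in these results was not tested.

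Markers of liver sinusoid cells followed the hepatocyte genes. Of 10 sinusoid endothelial markers 7 were higher and 0 lower (median 2.03), with culture changes of -1.94 in gallbladder and -3.81 in liver. Their mean level was 7.80 and 9.25 in gallbladder tissue, 10.45 and 10.55 in liver tissue, and 6.64 to 6.71 in organoids. Macrophage and Kupffer cell markers gave 11 higher and 1 lower of 14 (median 1.72). Cd5l, secreted by tissue macrophages, read 5.51 and 7.56 in gallbladder tissue, 11.32 and 11.07 in liver tissue, and 4.99 to 5.60 in organoids (interaction 5.21 ± 0.67, adjusted p = 0.0003). Vsig4, a complement receptor of Kupffer cells (4.31 ± 0.80, adjusted p = 0.00246), fell by 2.61 in gallbladder and by 6.92 in liver. On both lists gallbladder tissue replicate 2 read above replicate 1, as it did for hepatocyte genes, and the part of hepatocyte RNA in these results was not tested. The lower macrophage marker, the integrin Itgam, was named after its values were seen and lost its call without either gallbladder organoid array, gallbladder tissue replicate 1, liver organoid replicate 2 or liver tissue replicate 2, leaving a lower count of 0.

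**Figure D4:**
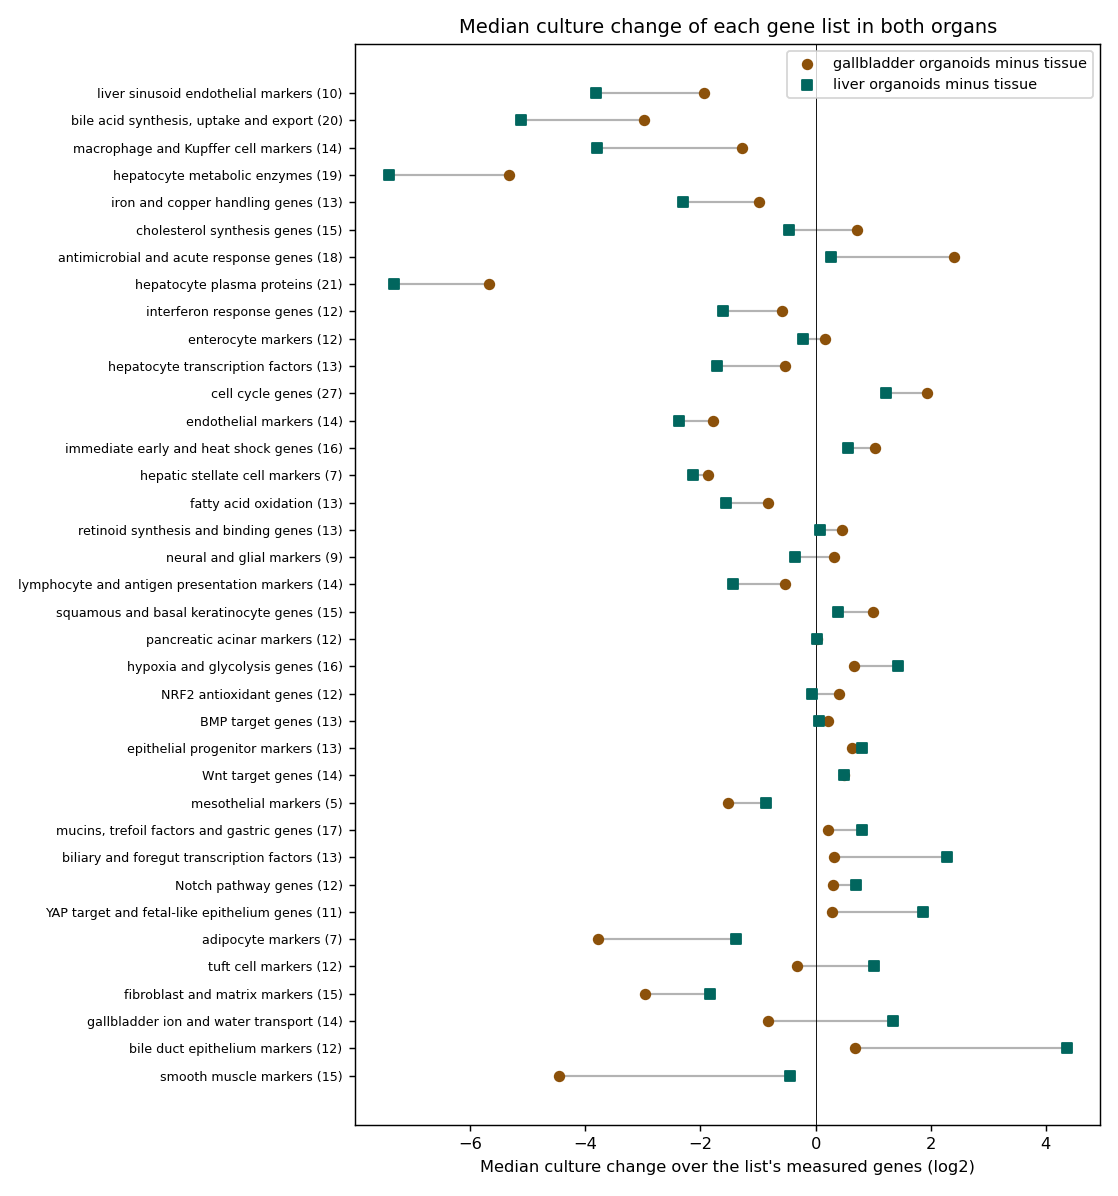
Median culture change (x axis, log2) of each gene list with at least 5 measured genes, in gallbladder (circles) and in liver (squares), ordered by median interaction, with the number of measured genes in brackets. Bile duct markers lie at 0.68 and 4.36, smooth muscle markers at -4.46 and -0.44, and hepatocyte plasma proteins at -5.67 and -7.32.

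For 750 genes the organoid difference was called and the tissue difference was not, which does not show that the tissues were equal. The tissue difference was -0.90 for Rbp4, -0.88 for Nefl and -0.79 for Glp1r. On the higher side, St8sia6, a sialyltransferase, read 10.65 and 10.66 in gallbladder organoids and 5.84 to 6.70 on the other 6 arrays (interaction 4.21 ± 0.22, adjusted p = 1.74e-06). Glp1r, the receptor for the gut hormone GLP-1, read 9.60 and 9.32 in gallbladder organoids and 6.00 to 6.97 elsewhere (3.85 ± 0.64, adjusted p = 0.00126). In both genes gallbladder organoids were the only high group. The neurofilament gene Nefl (3.78) and Shisa6, a partner of glutamate receptors (2.73), had the same shape, and Armcx2 (3.19) rose by 2.58 in gallbladder and fell by 0.61 in liver. Retinol binding protein (Rbp4), a plasma protein of hepatocytes, reached its place another way: it read 12.16 and 13.70 in gallbladder tissue, 9.35 and 9.27 in its organoids, 13.72 and 13.93 in liver tissue and 6.35 and 6.66 in liver organoids (3.70 ± 0.62, adjusted p = 0.00139). It fell in both cultures, by 3.62 and 7.32, and read higher in gallbladder organoids than in liver organoids.

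Secreted signals of inflammation were among them. The neutrophil chemokine Cxcl2 read 5.51 and 5.75 in gallbladder tissue, 10.72 and 10.65 in its organoids, 6.62 and 5.46 in liver tissue and 7.45 and 8.47 in liver organoids (interaction 3.13 ± 0.54, adjusted p = 0.00154). The growth factor Csf2 (GM-CSF) read 10.47 and 10.33 in gallbladder organoids, 7.33 and 7.68 in liver organoids and 5.79 to 6.58 in tissue (3.13 ± 0.50, adjusted p = 0.00104). Both genes rose in both cultures, further in gallbladder, and the groups of organoids did not overlap. The start region of Cxcl2 is shown because this gene is known for activation through NF-kB, whose letters occur in it in 2 places, given in capitals (RefSeq, GRCm38.p6, chr5:90903649-90903948, plus strand).
Cxcl2: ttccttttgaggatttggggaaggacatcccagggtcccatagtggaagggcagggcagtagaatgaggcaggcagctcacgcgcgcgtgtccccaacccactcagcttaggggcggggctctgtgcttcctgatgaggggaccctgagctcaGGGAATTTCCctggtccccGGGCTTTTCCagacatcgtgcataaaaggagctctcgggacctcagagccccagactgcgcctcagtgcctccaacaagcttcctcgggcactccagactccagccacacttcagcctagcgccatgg
The capitals mark the NF-kB motif, searched as GGG, any 2 bases, then TTTCC, with first bases at positions -97 and -78. These letters stand on either strand in 1.63% of the 32851 promoters and in 1.57% of the 19177 promoters of all genes tested. Genes called between organoids and not between tissues numbered 419 on the higher side and 331 on the lower side. The letters stand in 10 of 358 promoters (2.79%) matched to the 419, and in 3 of 351 (0.855%) matched to the 331. The promoters were found for 299 and 265 of these genes. Of the other motifs searched, the HNF1 letters stand in 0.279% and 0.855% of these sets (0.344% for all genes tested). The AP-1 letters TGAGTCA stand in 6.7% and 5.7% (4.63% for all genes tested, 5.2% of all promoters). The TATA letters TATAAA stand in 10.9% and 7.98% (11.5% for all genes tested, 13.6% of all promoters). None of the 4 motifs holds another, and nothing is drawn from these shares.

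Antimicrobial and acute response genes gave 10 higher and 0 lower of 18 (median 1.38), with median culture changes of 2.40 in gallbladder and 0.26 in liver. The count of 10 depends on the organoid arrays: it was 4 when gallbladder organoid replicate 1 was left out, 6 for replicate 2, 5 for liver organoid replicate 1 and 6 for its replicate 2. Without gallbladder tissue replicate 2, 2 of the genes were called lower. Chil1, a chitinase-like protein of inflamed epithelium, was the largest: it read 12.34 and 12.07 in gallbladder organoids and 6.44 to 7.33 on the other 6 arrays (interaction 5.83 ± 0.22, adjusted p = 2.19e-07). The serum amyloid gene Saa3 rose by 0.80 in gallbladder, which was not called, and fell by 3.35 in liver (4.14 ± 0.73, adjusted p = 0.00184). The acute phase genes Saa1 and Saa2 varied between replicates of both tissues and were not called: Saa1 read 13.46 and 7.23 in liver tissue and 5.93 ± 2.92 in gallbladder tissue (SD, n = 2). Reg3b, an antimicrobial lectin named after its values were seen, rose by 6.33 in gallbladder and by 3.49 in liver. Its interaction of 2.84 was not called (adjusted p = 0.0648), and it read 8.81 and 5.38 in gallbladder tissue. Lactoferrin (Ltf), likewise named after its values were seen, rose by 5.46 and 6.55 (interaction -1.10, adjusted p = 0.249).

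Genes of iron and copper handling gave 8 higher and 1 lower of 13 (median 1.48). The count of 8 was 3 without gallbladder organoid replicate 1 or liver organoid replicate 2, 4 without gallbladder organoid replicate 2, gallbladder tissue replicate 1, liver organoid replicate 1 or liver tissue replicate 1, and 5 without liver tissue replicate 2. Transferrin (Trf), the iron carrier of plasma, read 13.27 and 14.02 in gallbladder tissue, 12.77 and 12.56 in its organoids, 14.27 and 14.29 in liver tissue and 6.95 and 6.97 in liver organoids (interaction 6.34 ± 0.33, adjusted p = 1.59e-06). Liver organoids were the only low group, and the fall of 7.32 in liver starts from signals near the top of the scale. Ceruloplasmin (Cp), the copper-carrying ferroxidase, rose by 0.94 in gallbladder and fell by 1.52 in liver (2.46, adjusted p = 0.00351). Atp7b, the copper pump mutated in Wilson disease, was the member on the lower side: it read 7.14 and 7.39 in gallbladder organoids and 9.14 to 9.75 on the other 6 arrays (-2.60 ± 0.23, adjusted p = 2.83e-05).

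On the lower side of this set, 6 of the 8 named genes had liver organoids as their highest group. Gnat3, the gustatory G protein of tuft cells, read 9.03 and 8.43 in liver organoids and 4.44 to 5.33 on the other 6 arrays (interaction -4.75 ± 0.42, adjusted p = 3e-05). Rbp2, an intracellular retinol carrier, read 10.97 and 10.95 in liver organoids and 6.04 to 7.17 elsewhere (-3.87 ± 0.27, adjusted p = 7.31e-06). Hif3a, of the hypoxia-inducible factor family (-3.80), the secreted Prap1 (-4.64), the nuclease Dnase1l2 (-4.38) and the proton pump subunit Atp6v0a4 (-3.89) rose in liver culture by 3.91, 3.74, 4.11 and 2.40. Liver organoids were the highest group for each of these 6 genes, without overlap. Cyp2f2, a cytochrome P450 of airway and liver, was far lower in gallbladder organoids than in any other group. It read 13.28 and 13.95 in gallbladder tissue, 7.09 and 7.29 in its organoids, 14.04 and 13.87 in liver tissue and 12.91 and 12.40 in liver organoids (-5.12 ± 0.34, adjusted p = 5.47e-06). The sulfotransferase Sult1a1 had the same shape (-4.03 ± 0.24, adjusted p = 2.82e-06), at 7.01 and 7.20 in gallbladder organoids and 10.95 to 12.31 on the other 6 arrays.

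**Figure D5:**
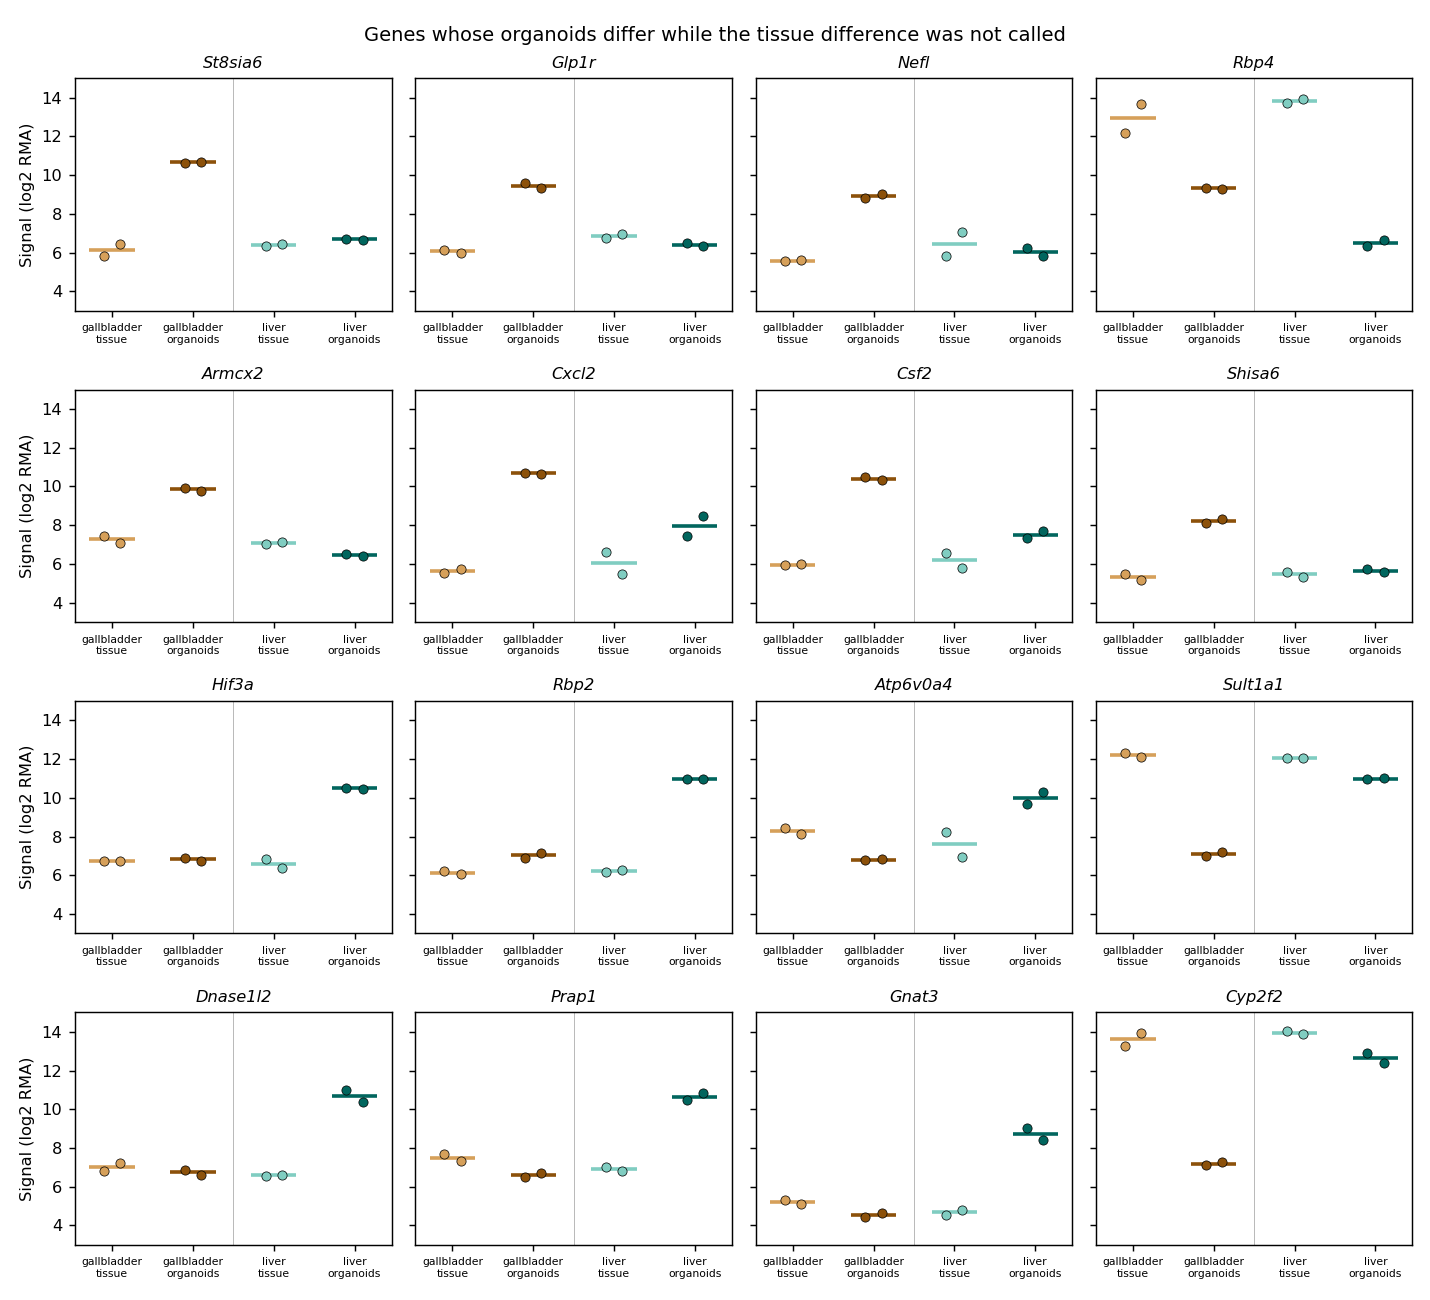
Signal (log2) on each array of the 16 named genes whose organoids differ while the tissue difference was not called, with points for arrays and bars for group means. The first 8 are higher in gallbladder organoids, as St8sia6 at 10.65 and 10.66, and the last 8 lower, as Cyp2f2 at 7.09 and 7.29.

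Tuft cell markers, which name the chemosensory cells of epithelia, gave 6 lower and 1 higher of 12 (median -1.32), with a median culture change of -0.32 in gallbladder and 1.02 in liver. Their mean level was 8.22 and 7.96 in liver organoids and 6.61 to 7.30 on the other 6 arrays. The single higher member lost its call without any one of several arrays: the count was 0 without either gallbladder organoid array, liver organoid replicate 2 or liver tissue replicate 2, and 2 without liver organoid replicate 1 or liver tissue replicate 1. Rgs13, a regulator of G protein signalling, read 7.49 and 7.76 in gallbladder tissue, 5.07 and 4.78 in its organoids, 5.03 and 4.84 in liver tissue and 9.95 and 9.40 in liver organoids (interaction -7.45 ± 0.50, adjusted p = 5.43e-06). The cation channel Trpm5 (-3.31) and the kinase Dclk1 (-2.54) rose in liver by 2.42 and 1.94. Pou2f3, the master regulator of these cells, was named after its values were seen: it read 8.41 and 8.34 in liver organoids and 6.91 to 7.08 elsewhere (-1.42 ± 0.20, adjusted p = 0.000529).

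Retinoid genes gave 3 higher and 2 lower of 13 (median 0.45), shares near those of all genes (22.7% and 17.1%), and 6 higher without gallbladder tissue replicate 2. Beside Rbp2 and Rbp4, Aldh1a1, an enzyme of retinoic acid synthesis, fell by 4.27 in gallbladder and by 1.69 in liver (-2.58 ± 0.37, adjusted p = 0.000592). Rdh10, which makes retinal, rose by 3.58 and 1.08 (2.50 ± 0.54, adjusted p = 0.00514). Stra6, the membrane receptor for Rbp4, named after its values were seen, rose by 4.34 and 3.38 (0.97, adjusted p = 0.00425).

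Cell cycle genes rose in both cultures, 27 of 27 in gallbladder and 22 of 27 in liver, with median changes of 1.93 and 1.23. In the interaction 12 were higher and 1 lower (median 0.66), and the lower call held without liver tissue replicate 2 or gallbladder tissue replicate 2 but was lost without any one of the organoid arrays or gallbladder tissue replicate 1, while without liver tissue replicate 1 it was 2. Cyclin E (Ccne1) read 7.44 and 7.35 in gallbladder tissue, 9.46 and 9.68 in its organoids, 8.39 and 8.43 in liver tissue and 8.26 and 8.28 in liver organoids (2.32 ± 0.24, adjusted p = 8.22e-05). Its change was called in gallbladder (2.18) and not in liver (-0.14). Rrm2, a ribonucleotide reductase subunit, rose by 2.72 and 0.83 (1.89), starting from 7.40 and 7.57 in gallbladder tissue and 10.45 and 9.75 in liver tissue. The proliferation antigen Mki67 rose by 1.87 and 2.09 (interaction -0.22, adjusted p = 0.609). Mcm7, a subunit of the replicative helicase named after its values were seen, rose by 2.59 and 1.16 (1.43, adjusted p = 0.000259).

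For the signals supplied by the medium, Wnt target genes gave 2 higher and 3 lower of 14 (median -0.29). Over all genes, 22.7% were higher and 17.1% lower. Lgr5, the R-spondin receptor, read 6.54 and 7.90 in gallbladder tissue, 10.56 and 10.18 in its organoids, 9.40 and 8.41 in liver tissue and 9.09 and 9.24 in liver organoids (2.90 ± 0.56, adjusted p = 0.00309). It rose in gallbladder, by 3.16, while the change in liver was 0.26. Axin2, a general Wnt target, rose by 0.47 and 0.74 (interaction -0.27, adjusted p = 0.175), and Myc, named after its values were seen, by 2.65 and 3.48. BMP target genes gave 2 higher and 1 lower of 13 (median 0.05). The count of 2 was 0 without gallbladder organoid replicate 2 or liver organoid replicate 2, and 1 without gallbladder organoid replicate 1, gallbladder tissue replicate 1 or liver tissue replicate 1. Without liver tissue replicate 1, 2 were lower. Id1 rose by 0.83 in gallbladder and by 3.34 in liver (-2.51 ± 0.41, adjusted p = 0.00124). Notch pathway genes gave 1 higher and 5 lower of 12 (median -0.63). The 5 became 3 without either gallbladder organoid array, gallbladder tissue replicate 2 or liver organoid replicate 2, and the 1 became 2 without liver tissue replicate 1. The ligands Jag2, Jag1 and Dll1 were lower (-1.26, -0.99 and -1.33) and the target Hey1 higher (1.06).

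Some organ differences were of similar size in tissue and in organoids. Of 1462 genes called between the organs both as tissue and as organoids, 646 kept the direction and 816 turned it. Over all genes, 20.7% were called higher and 27.4% lower between tissues, and 6.17% and 6.52% between organoids. Unlinked calls would also share a direction in some genes, and the 646 was not tested against that number. The organoid calls behind these counts fell when single organoid arrays were left out. In 482 of the 646 the interaction was not called, and in 367 of these its 95% interval lay within 1 log2 unit of 0, 177 higher in gallbladder and 190 lower. In only 27 of the 367 were both organ differences 1 log2 unit or more. For smaller differences an interval of this width does not show that the difference was kept. A miss of the call alone does not show equal differences, so the interval is given, and the genes named here were chosen after their values were seen. Slit2, an axon guidance ligand, read 9.59 and 8.74 in gallbladder tissue, 9.87 and 9.71 in its organoids, 6.10 and 6.16 in liver tissue and 6.89 and 6.76 in liver organoids. Gallbladder was above liver by 3.04 in tissue and by 2.96 in organoids, with an interaction of -0.07 (interval -0.96 to 0.81). The amino acid carrier Slc38a1 was higher by 1.94 and 2.26 (interval -0.02 to 0.66), and the secreted protease Htra1 by 1.84 and 2.25 (interval 0 to 0.81). Rab17, a GTPase of polarised epithelia, was lower in gallbladder, at -2.09 in tissue and -2.48 in organoids (interaction -0.39, interval -0.71 to -0.07). Nnt is the mitochondrial transhydrogenase, of which the C57BL/6J substrain is known to carry a defective allele. Like Rab17, it had an interval that leaves out 0 (interaction 0.44, interval 0.07 to 0.82). Nnt differed by -1.65 in tissue and -1.21 in organoids. It read 9.95 and 10.14 in gallbladder tissue, 9.34 and 9.19 in its organoids, 11.69 and 11.71 in liver tissue and 10.40 and 10.54 in liver organoids, and the labels name no substrain. The BMP targets Id3 (-2.49 and -2.45) and Atoh8 (-2.03 and -2.06) had nearly equal differences, but their intervals, -1.01 to 1.08 and -1.03 to 0.97, reach past 1 log2 unit.

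Metabolic and stress genes were mixed, beside 22.7% higher and 17.1% lower over all genes. Cholesterol synthesis genes gave 5 higher and 0 lower of 15 (median 1.43), with 14 higher without gallbladder tissue replicate 2, 3 without either gallbladder organoid array, gallbladder tissue replicate 1 or liver organoid replicate 2, and 1 lower without liver tissue replicate 1. Dhcr7, the last enzyme of that path, rose by 1.07 in gallbladder and fell by 1.03 in liver (2.10, adjusted p = 0.00471). Hypoxia and glycolysis genes gave 1 higher and 5 lower of 16 (median 0.12), where the higher count was 0 without gallbladder organoid replicate 1 or liver organoid replicate 1, 3 without gallbladder tissue replicate 2 and 4 without liver tissue replicate 2. Car9, a carbonic anhydrase of hypoxic and biliary cells, read 12.38 to 12.89 on all arrays but those of liver tissue, at 6.86 and 6.60 (-5.48 ± 0.45, adjusted p = 1.87e-05). NRF2 antioxidant genes gave 4 higher and 4 lower of 12 (median 0.07), with 2 higher without any one of the organoid arrays, gallbladder tissue replicate 1 or liver tissue replicate 1. Gpx2, the glutathione peroxidase of gut epithelium, rose by 1.99 and 5.27 (-3.29 ± 0.32, adjusted p = 5.3e-05), and Nqo1, named after its values were seen, fell by 0.90 in gallbladder and fell by 2.94 in liver (2.04, adjusted p = 0.004). Interferon response genes gave 4 higher and 1 lower of 12 (median 1.03), with 2 higher without gallbladder organoid replicate 1 or liver organoid replicate 1 and 3 lower without gallbladder tissue replicate 2. Oasl2 was the lower member (-3.75 ± 0.66, adjusted p = 0.00183).

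Of the remaining genes with the largest positive interactions, several changed in opposite directions. Rgs16, a regulator of G protein signalling, read 7.83 and 9.25 in gallbladder tissue, 11.73 and 11.55 in its organoids, 12.82 and 10.97 in liver tissue and 8.72 and 8.85 in liver organoids (6.21 ± 0.77, adjusted p = 0.000247). Vnn3, a pantetheinase, rose by 1.76 and fell by 3.83 (5.59), Fabp5, the epidermal fatty acid binding protein, rose by 3.26 and fell by 1.08 (4.34), and Pir, pirin, rose by 2.28 and fell by 1.74 (4.02). The apolipoprotein Apoa4 (5.31) read 13.66 and 13.16 in liver tissue, 7.65 and 9.50 in gallbladder tissue and 7.32 to 7.91 in organoids.

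The remaining lists are given by their counts, higher before lower, where 22.7% of all genes were higher and 17.1% lower. Enterocyte markers gave 3 higher and 1 lower of 12, squamous and basal keratinocyte genes 5 and 3 of 15, fatty acid oxidation genes 4 and 0 of 13, hepatocyte transcription factors 4 and 2 of 13, and endothelial markers 5 and 1 of 14. Without gallbladder tissue replicate 2 the higher counts were 6 for enterocyte markers, 9 for fatty acid oxidation, 8 for hepatocyte transcription factors and 9 for endothelial markers. Fatty acid oxidation gave 2 higher without either gallbladder organoid array, liver organoid replicate 1 or liver tissue replicate 1, and 1 lower without gallbladder tissue replicate 1. Squamous genes gave 3 higher without gallbladder organoid replicate 1, and endothelial markers 3 higher without gallbladder organoid replicate 2 or liver organoid replicate 2. The lower endothelial call was lost without any one of the organoid or gallbladder tissue arrays. Immediate early and heat shock genes gave 1 and 1 of 16, but 10 higher without liver tissue replicate 2, and 2 higher and 6 lower without liver tissue replicate 1. Without gallbladder tissue replicate 1, 2 were higher. The mean level of this list was 10.28 and 8.27 on liver tissue replicates 1 and 2, and 9.35 and 8.74 on those of gallbladder tissue. Lymphocyte and antigen presentation markers gave 1 and 1 of 14, hepatic stellate cell markers 2 and 0 of 7, neural and glial markers 3 and 2 of 9, mesothelial markers 0 and 2 of 5, and red blood cell markers 1 and 0 of 2. Without gallbladder tissue replicate 2 there were 4 higher stellate and 2 higher red blood cell markers, and without liver tissue replicate 1 there were 5 higher neural markers. The mesothelial count fell to 1 without either gallbladder tissue array and to 0 without any one of the organoid arrays or liver tissue replicate 1. For lymphocyte markers the higher count was 0 without liver organoid replicate 1 and 2 without liver tissue replicate 1, and the lower count was 3 without liver tissue replicate 2 and 0 without any other array but gallbladder tissue replicate 2. Of 12 pancreatic acinar markers and 7 adipocyte markers limma called 0 in the interaction, and 0 and 3 (all lower) had an unadjusted p under 0.05. Adipocyte markers gave 1 higher without gallbladder tissue replicate 2, and 2 and 4 lower without gallbladder tissue replicate 1 and liver tissue replicate 2. A single acinar gene was high in gallbladder tissue: Ctrb1, chymotrypsinogen, read 13.48 and 13.69, against 7.30 to 9.37 on the other 6 arrays (-4.54 ± 2.04, adjusted p = 0.104). It was the 1 of 12 acinar markers called between the tissues, and the median tissue difference of the list was -0.02.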

How the data were processed

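RNA from 14 samples was measured on Affymetrix arrays, 1 array per sample. The authors deposited log2 values, made by RMA per the submitters' processing notes, whose version is not given in the sources used here. The deposited values carry no detection calls, which leaves the noise floor unknown. Precision is limited by how few arrays each group has. GEO's platform annotation gives 1 symbol to 21789 of 35556 probe sets, several to 1621 and none to 12146. Of the named ones, the probe set of highest mean signal was kept for each of 19938 genes. limma 3.58.1 in R 4.3.3 fitted all 14 arrays as 7 groups of 2, with 7 residual degrees of freedom, and Benjamini-Hochberg adjustment ran over all genes, with a call at an adjusted p below 0.05. With 2 arrays per group an exact permutation test of 1 gene cannot go below 0.0556. On simulated data with independent noise and no interaction outside the planted genes, the fit recovered 44 of 50 genes planted at a log2 change of 2 and 17 of 50 at 1. That run called 117 genes in all, against 7929 in the real data. Its adjusted cut was therefore stricter, and these shares do not measure the sensitivity here.

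The members and gene lists were chosen with earlier results of these data known. Genes were named by rule: among called genes with the same sign in all 16 array combinations, the 12 most positive and 12 most negative interactions, the 8 of each sign with organoids alone called as different, the 6 of each sign with opposite culture changes, the 4 largest of each of 38 lists, and a set of reference genes such as Alb, Krt19 and Mki67. Other genes, the organ differences kept in culture, and the promoters and motifs were chosen after seeing values. Alternatives covered normalisation, variance model, gene filter, probe set choice and each array left out. Replicate numbers do not pair the samples: deviations correlated at -0.07 to 0.01 between groups. Promoters are RefSeq's (GRCm38.p6).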

Additional observations from a re-analysis of the deposited data

Results flagged for a closer look

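The interaction is itself a test of whether the culture change differs between the organs, so every gene it called meets that description: 4523 higher and 3406 lower in gallbladder. The genes below are named by the size of this difference, and their values chose them.

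Among the 12 largest positive differences, liver tissue was the high group for Cyp3a16 (7.37), Sult3a1 (6.95), A1bg (6.59), the transporter Slc22a26 (5.54), Cyp2a22 (5.44), 9030619P08Rik (5.38), the acyltransferase Acnat2 (5.35) and Apoa4 (5.31). Trf stood at 6.34, Rgs16 at 6.21, Chil1 at 5.83 and Vnn3 at 5.59.

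On the negative side were Cyp4a12a (-10.17), B4galnt2 (-9.49), Muc3 (-8.40), Cyp4a12b (-8.38), Dmbt1 (-8.07), Myo15b (-7.70), Rgs13 (-7.45), Cyp2s1 (-7.33), Adgrg7 (-7.26), Slc26a3 (-7.08), Oit1 (-7.07) and Lgals4 (-6.83).

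Where the organoid difference was called and the tissue difference was not, the positive differences were St8sia6 (4.21), Glp1r (3.85), Nefl (3.78), Rbp4 (3.70), Armcx2 (3.19), Cxcl2 (3.13), Csf2 (3.13) and Shisa6 (2.73). The negative ones were Cyp2f2 (-5.12), Gnat3 (-4.75), Prap1 (-4.64), Dnase1l2 (-4.38), Sult1a1 (-4.03), Atp6v0a4 (-3.89), Rbp2 (-3.87) and Hif3a (-3.80).

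Genes that rose in gallbladder culture and fell in liver culture further included Fabp5 (4.34), the Golgi protein Paqr3 (4.04), Pir (4.02) and the radial spoke gene Rsph4a (3.57).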

How the results depend on the processing

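Of 179 named genes called in the interaction, 138 were tested in each of the 18 alternatives, and 80 of these were called in each, or 118 without the minimum difference. The other 41 were dim or near the top of the scale and left out of at least 1. Whichever of the 8 arrays was left out, 152 of the 179 were called, and 0 were called with the opposite sign in any alternative run. Leaving out 1 array gave 5704 to 9064 interaction genes. For the organoid difference the range was 887 to 3494. Requiring a difference beyond 1 log2 unit gave 1086 interaction genes (22.3% higher, against 57%), 1207 for the culture change of gallbladder, 2404 for the culture change of liver, 129 for the organoid difference and 1154 for the tissue difference. Array weights gave 7399 between organoids and 5910 between tissues. Median centring gave 66.9% higher. With the replicate block 7836 interaction genes were called, 7621 of them shared, and 6 of the 179 named genes lost their call. Genes not called in the interaction were called in opposite directions without gallbladder tissue replicate 1 and without replicate 2: Cyp2d9 at -1.51 and 2.90, Elovl3 at -2.24 and 3.17, Cyp7b1 at -2.34 and 2.40, Hsd3b5 at -3.98 and 2.72, C6 at -2.53 and 2.52, and Xist at 6.27 and -1.77. The cause was not tested.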
